A study of Saccharomyces cerevisiae with 6 samples.

Results

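The 10 genes described here encode the folding machinery of the endoplasmic reticulum (ER) lumen of *Saccharomyces cerevisiae* and the signal that senses unfolded proteins there. They were taken by locus tag from a table of 5793 features that compared messenger RNA after heat shock with messenger RNA under optimal growth. All 10 were in the table. The members fell into 3 roles: Hsp70 chaperones and their partners (*KAR2*, *LHS1*, *SIL1*, *SCJ1* and *JEM1*), disulfide bond formation (*PDI1*, *EUG1* and *ERO1*) and the unfolded protein response signal (*HAC1* and *IRE1*).

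The cells were strain BJ5464, described in the labels as delta-URA3, and both groups carry that genotype. A single culture in rich glucose medium was split, and the heat shock group (3 libraries) was held at 37 °C for 20 min, while the optimal growth group (3 libraries) stayed at 28 °C. Each library was made from an aliquot of 1 of these parts. The p-values therefore set the difference between the 2 parts against the spread among aliquots within a part, not among cultures. An effect of heat cannot be told apart from any other difference between the 2 parts. The URA3 row had a log2 mean CPM of 7.10, so transcript was counted for a gene that the strain label names as deleted. Its log2 fold change was -1.07, and why it was counted was not tested.

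Proteins that enter the ER are folded with the help of Kar2, the lumenal Hsp70 known as BiP in mammals. J-domain proteins deliver substrates to it, and exchange factors reset its nucleotide. Cysteines are paired by protein disulfide isomerases, which the oxidase Ero1 recharges. When unfolded proteins build up, the membrane sensor Ire1 cuts an intron out of *HAC1* mRNA, the tRNA ligase Trl1 joins the exons, and the Hac1 protein made from the spliced message activates genes of ER folding, transport and degradation. Hac1 acts through unfolded protein response elements (UPRE). Cytosolic heat shock is read mainly by another factor, Hsf1, which binds heat shock elements made of alternating TTC and GAA units.

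The members changed in both directions after heat shock. *KAR2*, *ERO1*, *PDI1* and *SCJ1* were higher, *HAC1*, *LHS1*, *JEM1* and *IRE1* were lower, and *SIL1* and *EUG1* did not pass the test. A feature was called at a false discovery rate (FDR) under 0.05, adjusted over all 5793 features. Thus 8 of the 10 members were called, beside 75.2% of all features, with 4 higher (38.6% of all features were higher) and 4 lower (36.6% were lower). The share of members called was therefore near that of the table as a whole. When a log2 fold change of 1 or more in size was also required, 2 members were higher (6.73% of features) and 0 were lower (5.28% of features). The median log2 fold change of the members was -0.02, beside 0.02 for all features, and their values ran from -0.37 to 1.80.

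**Figure D1:**
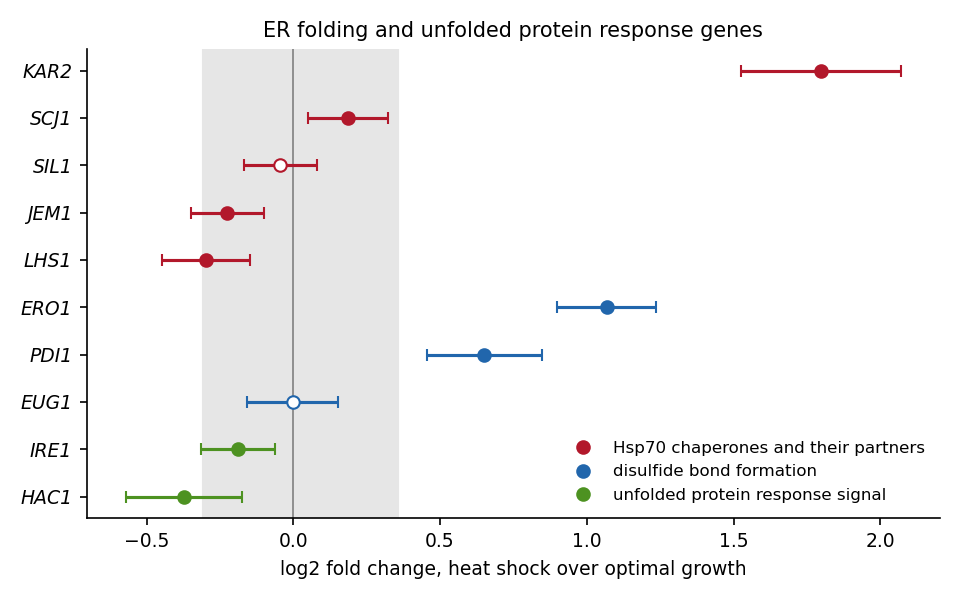
Log2 fold change (heat shock over optimal growth) for each member, grouped by role; bars are approximate 95% intervals implied by the p-value, filled points passed FDR 0.05, open points did not, and the grey band holds the middle 50% of all features (-0.31 to 0.36). *KAR2*, *ERO1* and *PDI1* lie right of the band, and *HAC1* lies just left of it.

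The upstream sequences and the *HAC1* splice sites are shown first, because the members differ in them in ways the choice of genes did not use. The table has no sequence of its own, so all were read from the RefSeq R64 genome, in the direction of transcription. The region before *KAR2*, at chrX:381077-381326 on the plus strand, ends at the base before the start codon. Capitals mark the heat shock element and the UPRE core. The heat shock element was searched as 3 alternating units of TTC and GAA with 2 bases between units, on both strands, and the UPRE core as CAGCGTG, on both strands.
KAR2: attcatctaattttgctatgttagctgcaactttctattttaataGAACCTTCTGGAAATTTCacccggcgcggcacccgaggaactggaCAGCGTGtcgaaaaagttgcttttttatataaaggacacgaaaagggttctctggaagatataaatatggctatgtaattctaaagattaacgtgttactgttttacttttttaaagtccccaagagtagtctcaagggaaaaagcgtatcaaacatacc

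In *KAR2*, matches to the heat shock element on both strands overlap and begin 205 and 200 bases before the start codon. The UPRE core begins 160 bases before it. Of 5706 protein-coding genes in the table, 44 (0.771%) had such a heat shock element within 250 bases before the start codon and 59 (1.03%) had the UPRE core. The pair occurred before 2 genes, *KAR2* and *TAD2*, which are transcribed away from each other from a shared gap of 325 bases. *TAD2*, an adenosine deaminase subunit that acts on tRNA, had a log2 fold change of -0.42 and *KAR2* one of 1.80.

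A single match was found before each of 4 other members, and these are shown with 12 bases on either side. Capitals mark the match. *LHS1* (chrXI:296319-296349, plus strand) had the UPRE core on the opposite strand. *ERO1* (chrXIII:13296-13325, minus strand), *SIL1* (chrXV:267614-267643, minus strand) and *EUG1* (chrIV:1478422-1478451, plus strand) had the core of a related element, UPRE-2, searched as TACGTG on both strands.
LHS1: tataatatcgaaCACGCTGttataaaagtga
ERO1: aacgatacggagTACGTGtcataaaaactt
SIL1: atgtgaaaaggcCACGTAaatgatagagca
EUG1: ttcccttcaaaaCACGTAaacgatagttgg

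The UPRE-2 core was found within 250 bases before 401 of the 5706 genes (7.03%). The matches began 139 bases before the start codon in *ERO1*, 102 in *SIL1*, 174 in *EUG1* and 99 in *LHS1*. Members with a UPRE-type match therefore included genes that were higher (*KAR2*, *ERO1*), lower (*LHS1*) and not called (*SIL1*, *EUG1*). Over the table, the 59 genes with the UPRE core had a median log2 fold change of 0.003, and 2 of the 59 were called higher by at least 1, beside 6.73% of all features. The 401 with the UPRE-2 core had a median of 0.03, with 20 called higher by at least 1. The 44 with a heat shock element had a median of 0.19, with 11 so called. *KAR2* is in both this set and that of the UPRE core, and is among the genes so called in each. No member had a stress response element (STRE, searched as AGGGG on both strands, found before 19.1% of genes) in the same window. The 1087 genes that had it showed a median of 0.25, with 185 called higher by at least 1. In a window of 500 bases, *PDI1* had 3 STRE matches and *EUG1* had 1, beside 34.5% of genes. These are matches of letters only, and binding was not measured. The heat shock element was searched only as exact units with fixed spacing. Among the genes of the lists below it was found before *SSA2*, *FES1* and *SSE1*. It was not found before *SSA4* or *SSA1*, whose log2 fold changes were 6.17 and 3.84. Members without a match may therefore hold other forms of the element, which were not searched. The UPRE core, the UPRE-2 core and the STRE were likewise searched only as exact strings. A member without a match to them may hold other forms, and the gene counts cover exact matches only.

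**Figure D2:**
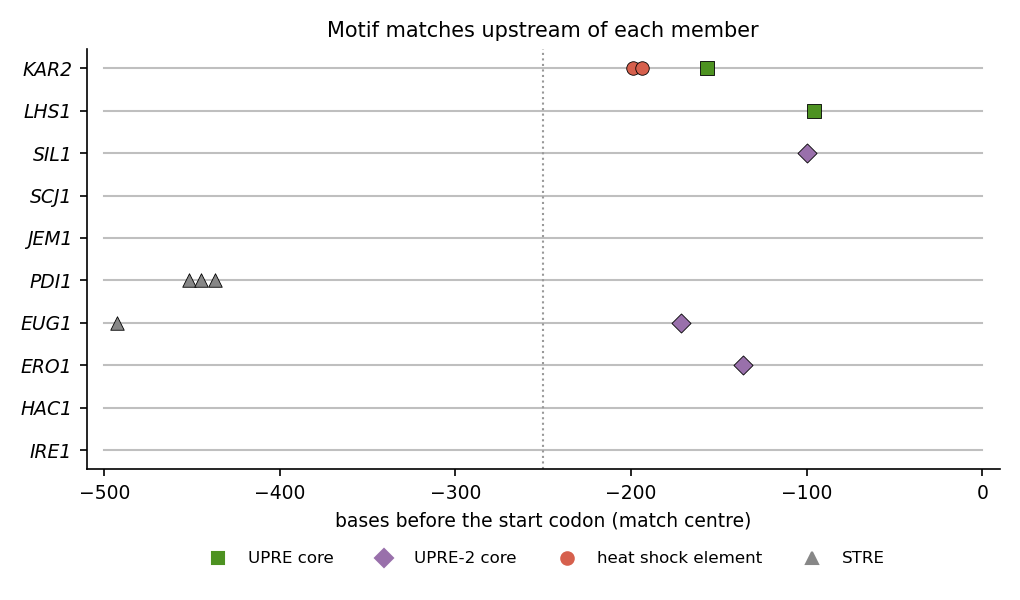
Motif matches before the start codon of each member; the x axis is the distance of the match centre in bases, and the dotted line marks 250 bases. *KAR2* is the member with both a heat shock element and a UPRE core, and *SCJ1*, *JEM1*, *HAC1* and *IRE1* show no match within 500 bases.

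The *HAC1* splice sites are shown because they set what a gene-level value of this gene can hold. The coding exons lie at chrVI:75179-75839 and chrVI:76092-76147 on the plus strand, 661 and 56 bases long, with an intron of 252 bases between them. Capitals mark 15 exon bases and lower case 15 intron bases.
HAC1 exon 1 to intron: ATTGGCGTAATCCAGccgtgattacgatga
HAC1 intron to exon 2: tgcttgtactgtccgAAGCGCAGTCAGGTT

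The *HAC1* intron starts with CC and ends with CG. Among the 248 annotated genes of the table with a single coding intron, 240 (96.8%) had an intron that starts with GT and ends with AG, the form that the spliceosome uses. The table gives a single value for *HAC1*, so spliced and unspliced message cannot be told apart in it.

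All fold changes, p-values and FDR values below are those of the deposited edgeR comparison of the groups. That table has no value per library, so no standard deviation could be given. In its place an approximate standard error (SE) was derived from each fold change and its p-value, which gave a median SE of 0.06 over 5725 features. A level per group was derived from the fold change and the mean CPM (counts of reads after scaling for library size), on the assumption that the mean is the plain average of the groups, and is given per kb of coding sequence where genes are compared. These levels carry no error of their own.

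*KAR2* (YJL034W, chrX:381327-383375, plus strand, 1 coding exon) had the highest fold change of the members, 1.80 on the log2 scale with an SE of 0.14 (FDR 1.14e-37). This is 3.48-fold, with an approximate 95% interval of 2.88 to 4.20. It ranked 120th from the top among the 5793 features. The derived level was 3025 CPM after heat shock and 869 CPM under optimal growth. *KAR2* was also the most abundant member, above 99.3% of all features in mean CPM.

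The exchange factors of Kar2 were not higher. *LHS1* (YKL073W, chrXI:296430-299075, plus strand) encodes a large Hsp70-like protein that works as a nucleotide exchange factor for Kar2. It was lower, with a log2 fold change of -0.30 and an SE of 0.08 (FDR 1.76e-04). *SIL1* (YOL031C, chrXV:266264-267529, minus strand) encodes the other exchange factor. Its log2 fold change of -0.04 did not pass the test (FDR 0.539), with a fold of 0.97 and an approximate interval of 0.89 to 1.06. The nearest gene to *SIL1*, *OPI10* on the opposite strand, ends 94 bases away and had a log2 fold change of 1.63.

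The J-domain members went opposite ways by small amounts. *SCJ1* (YMR214W, chrXIII:695350-696483, plus strand) encodes a J-domain protein free in the lumen. It was higher, with a log2 fold change of 0.19 and an SE of 0.07 (FDR 0.0109), the weakest call among the members, and was not called at an FDR under 0.01. *JEM1* (YJL073W, chrX:303181-305118, plus strand) encodes a J-domain protein of the ER membrane that also takes part in nuclear fusion during mating. It was lower, at -0.22 with an SE of 0.06 (FDR 5.78e-04).

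Levels per kb show how far *KAR2* moved away from its partners. After heat shock it stood at 1476 CPM per kb, and under optimal growth at 424 CPM per kb. *SCJ1* had 132 CPM per kb after heat shock and 116 CPM per kb under optimal growth. The ratio of *KAR2* to *SCJ1* was thus 11.2 after heat shock and 3.66 under optimal growth. Against *LHS1* the ratio was 32.6 after heat shock and 7.62 under optimal growth, against *SIL1* it was 19.9 after heat shock and 5.56 under optimal growth, and against *JEM1* it was 37.7 after heat shock and 9.28 under optimal growth.

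**Figure D3:**
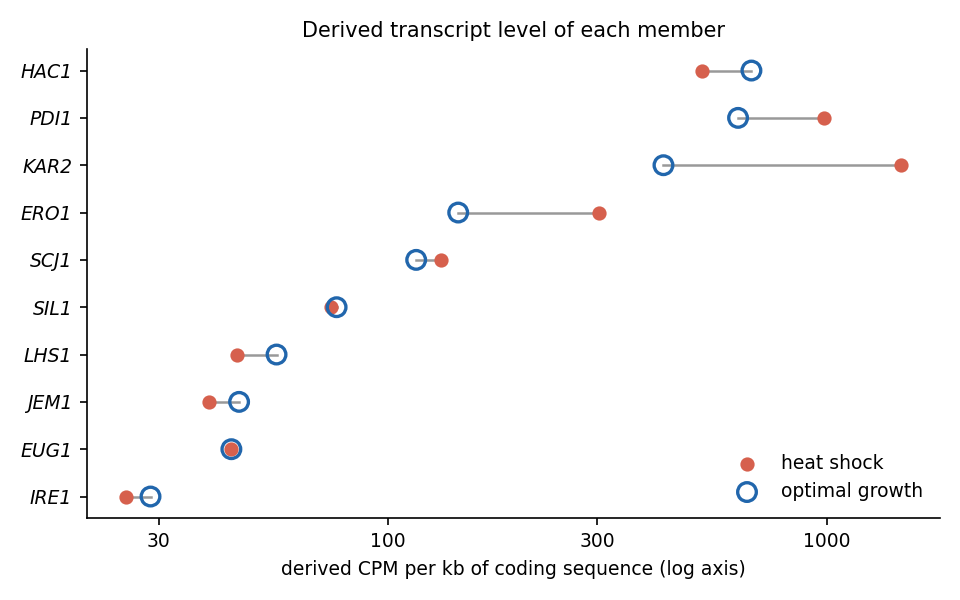
Derived level of each member in CPM per kb of coding sequence, on a log axis, after heat shock (filled) and under optimal growth (rings). *KAR2* stands at 1476 after heat shock and 424 under optimal growth, and *HAC1*, counted per kb of coding exons without its intron, stands at 520 after heat shock and 673 under optimal growth.

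Among the genes of disulfide bond formation, the oxidase and the main isomerase were higher. *ERO1* (YML130C, chrXIII:11483-13174, minus strand) encodes the membrane-bound oxidase that passes oxidising power to Pdi1. It was higher, with a log2 fold change of 1.07 and an SE of 0.09 (FDR 5.20e-35), which is 2.10-fold with an approximate interval of 1.87 to 2.35. *PDI1* (YCL043C, chrIII:48653-50221, minus strand) encodes the essential protein disulfide isomerase. It was higher, with a log2 fold change of 0.65 and an SE of 0.10 (FDR 1.33e-10), or 1.57-fold with an interval of 1.37 to 1.80.

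*EUG1* (YDR518W, chrIV:1478608-1480161, plus strand) encodes a non-essential relative of Pdi1. Its log2 fold change was -0.002 (FDR 0.988), with a fold of 0.999 and an approximate interval of 0.90 to 1.11. The interval leaves out a change as large as that of *PDI1*. *PDI1* stood at 986 CPM per kb after heat shock and 628 CPM per kb under optimal growth, while *EUG1* stood at 43.9 CPM per kb in both. *ERO1* reached 303 CPM per kb after heat shock, against 144 CPM per kb under optimal growth.

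Both genes of the signal itself were lower. *HAC1* (YFL031W) had the lowest fold change of the members, -0.37 on the log2 scale with an SE of 0.10 (FDR 3.68e-04). The derived level was 520 CPM per kb after heat shock and 673 CPM per kb under optimal growth, counted per kb of coding exons. Per kb of the whole 969 bases, intron included, it was 385 CPM after heat shock and 498 CPM under optimal growth. The first count places it above *PDI1* (628 CPM per kb) under optimal growth and the second below it, so no rank is given. *IRE1* (YHR079C, chrVIII:258244-261591, minus strand) was lower by a smaller amount, with a log2 fold change of -0.19 and an SE of 0.06 (FDR 0.00462). It was the least abundant member per kb, at 25.2 after heat shock and 28.7 under optimal growth. Neither call survived a Bonferroni adjustment, nor did those of *LHS1*, *JEM1* and *SCJ1*.

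In order of fold change, *KAR2*, *ERO1* and *PDI1* each had an approximate interval that did not overlap that of the next. From *SCJ1* down through *EUG1*, *SIL1*, *IRE1*, *JEM1* and *LHS1* to *HAC1*, each interval overlapped that of its neighbour. The differences between genes were not tested, since they share libraries. Summed over the 10 members, the derived level was 6048 CPM after heat shock and 3210 CPM under optimal growth. *KAR2* made up 50.01% of the sum after heat shock and 27.1% under optimal growth.

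**Figure D4:**
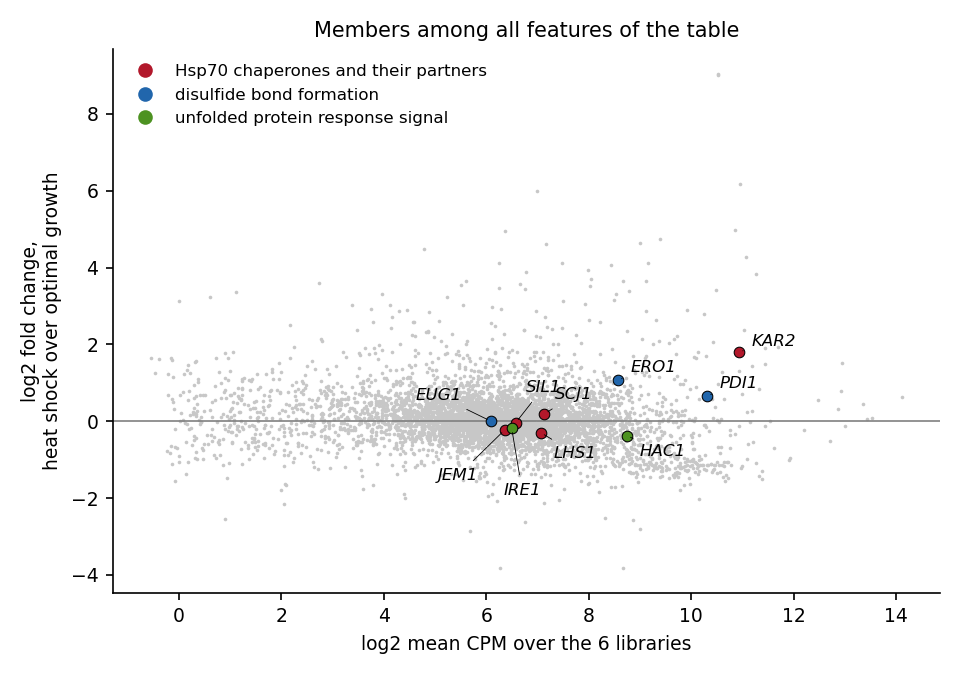
Log2 fold change (heat shock over optimal growth) against log2 mean CPM for all 5793 features (grey) and the members (coloured by role). *KAR2*, *PDI1* and *ERO1* lie above 0 among abundant features, and the others lie between -0.37 and 0.19. The lowest, *HAC1*, has a log2 mean CPM of 8.74, above the 8.56 of *ERO1*.

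The members have features in common that bear on how well they were measured. All were at a log2 mean CPM of 6.09 or more, beside a median of 6.26 over all features, and 6 of the 10 were above 7. None of their 50-base coding words occurred anywhere else in the genome. Exact matches of such length were therefore not shared with the many cytosolic Hsp70 genes or between *PDI1* and *EUG1*. Words that match with mismatches were not counted. No member overlapped another annotated gene. The gap to the nearest annotated gene was smallest for *SIL1* (94 bases) and *JEM1* (102 bases).

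The same comparison was read for 6 further gene lists, to be set beside the 38.6% of all features that were higher, the 36.6% that were lower and the overall median of 0.02. Genes of ER folding outside the members changed in both directions. Of 17 such genes, 9 were higher and 3 lower, with a median log2 fold change of 0.13. *ERV29*, a receptor that loads cargo into vesicles leaving the ER, was highest at 1.30 (FDR 1.22e-53). The further isomerases *MPD1* and *MPD2* were higher, at 0.73 and 0.56. *ERV2*, a second thiol oxidase of the lumen, was lower at -0.81 (FDR 1.21e-65), against the 1.07 of *ERO1*. *FPR2*, a prolyl isomerase of the ER that lies next to *EUG1*, was lower at -0.52. *SEC63*, the J-domain subunit of the translocation pore, was lower at -0.27, a value like that of *JEM1*. Other J-domain genes of the list differed from it. *HLJ1* was higher at 0.23 (FDR 2.16e-04), and *ERJ5* was not called at -0.01 (FDR 0.931).

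ER-associated degradation, which returns misfolded proteins to the cytosol for the proteasome, was the ER list with the most higher calls. Of 21 genes, 15 were higher and 1 lower, with a median of 0.35. The highest were *UFD1*, *NPL4* and *CDC48*, at 0.93, 0.92 and 0.83, the subunits of the complex that pulls substrates out of the membrane and that also acts elsewhere in the cell. *HTM1*, the mannosidase that marks glycoproteins for this route, was the lower gene, at -0.61. The smallest changes among those called higher were 0.23 for *UFD2* and 0.25 for *PNG1*, a ubiquitin chain extender and a glycan-removing enzyme. None of these 21 had a log2 fold change beyond 1 in either direction.

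Genes of entry into the ER were mostly lower. Of 23 genes of translocation, signal recognition, signal processing and tail anchor insertion, 14 were lower and 1 higher, with a median of -0.27. The small pore subunits *SBH1*, *SBH2* and *SSS1* were lowest, at -0.75, -0.72 and -0.66, while *SEC61*, the pore itself, was not called at -0.05 (FDR 0.472). *SEC61* lies outside the rule for named genes and was chosen after its value was seen. The higher gene was *GET3*, the ATPase that delivers tail-anchored proteins, at 0.43. The smallest falls among those called were -0.22 for *SPC3*, a signal peptidase subunit, and -0.25 for *SRP54*, the signal-binding subunit of the recognition particle.

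Genes of glycosylation were lower more often than higher. Of 22 genes of the oligosaccharyltransferase and of N-glycan assembly, 14 were lower and 3 higher, with a median of -0.19. Of the 9 oligosaccharyltransferase subunits, a subset chosen after its values were seen, 8 were lower and 0 higher, with *OST5* at -0.74 and *OST6* at -0.32. *ALG3*, a mannosyltransferase, was lowest of the list at -0.77, and *ALG13*, *ALG12* and *ALG10* were the higher ones, at 1.13, 0.64 and 0.16. *ALG13* acts early in assembly with *ALG14*, which was lower at -0.21 (FDR 0.00202), and *ALG12* and *ALG10* add late sugars.

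Of 12 genes that touch the signal, 3 were higher and 5 lower, with a median of -0.08. *TRL1*, the ligase that joins *HAC1* exons, was lower at -0.32 with an SE of 0.05. *TPT1*, which removes the phosphate that such ligation leaves on tRNA, was lower at -0.63. *GCN4*, a transcription factor of amino acid supply that also acts at unfolded protein response targets, was lower at -0.67. *SLT2*, the kinase of cell wall integrity, was higher at 0.59, *SPT20*, a subunit of the SAGA coactivator, at 0.43, and *DCR2*, a phosphatase that acts on Ire1, at 0.34.

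The last list holds cytosolic and mitochondrial counterparts, read in the same comparison. Of 15 genes, 12 were higher and 2 lower, with a median of 1.32. The 7 Hsp70 and Hsp110 genes chosen for the list were all higher. *SSA4* stood at 6.17, *SSA1* at 3.84, *SSE2* at 3.66 and *SSA3* at 3.14. *SSA2* stood at 1.90, *SSE1* at 1.32 and the mitochondrial *SSC1* at 0.96. The list does not hold every gene of these families, so its counts and median describe the chosen genes only. *KAR2*, at 1.80, lay between *SSA2* and *SSE1*. The J-domain genes *SIS1*, *MDJ1* and *YDJ1* stood at 2.00, 1.55 and 0.96, beside 0.19 for *SCJ1* and -0.22 for *JEM1*. *FES1*, a cytosolic exchange factor, was higher at 0.89, beside -0.04 for *SIL1*. *MIA40*, which introduces disulfide bonds in mitochondria, was higher at 0.81, beside 0.65 for *PDI1*. *ERV1*, the thiol oxidase that reoxidises Mia40, had a log2 fold change of 0.004 (FDR 0.948) and was not called, beside 1.07 for *ERO1*. The mitochondrial exchange factor gene *MGE1* (-0.50) and the ER membrane-anchored *SNL1* (-0.83) were lower. Of the 50-base words of *SSA1* and *SSA2*, 57.9% and 58.2% were found at another place too, so the value of each alone is uncertain. No difference between the lists was tested, because the table allows no test across libraries.

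**Figure D5:**
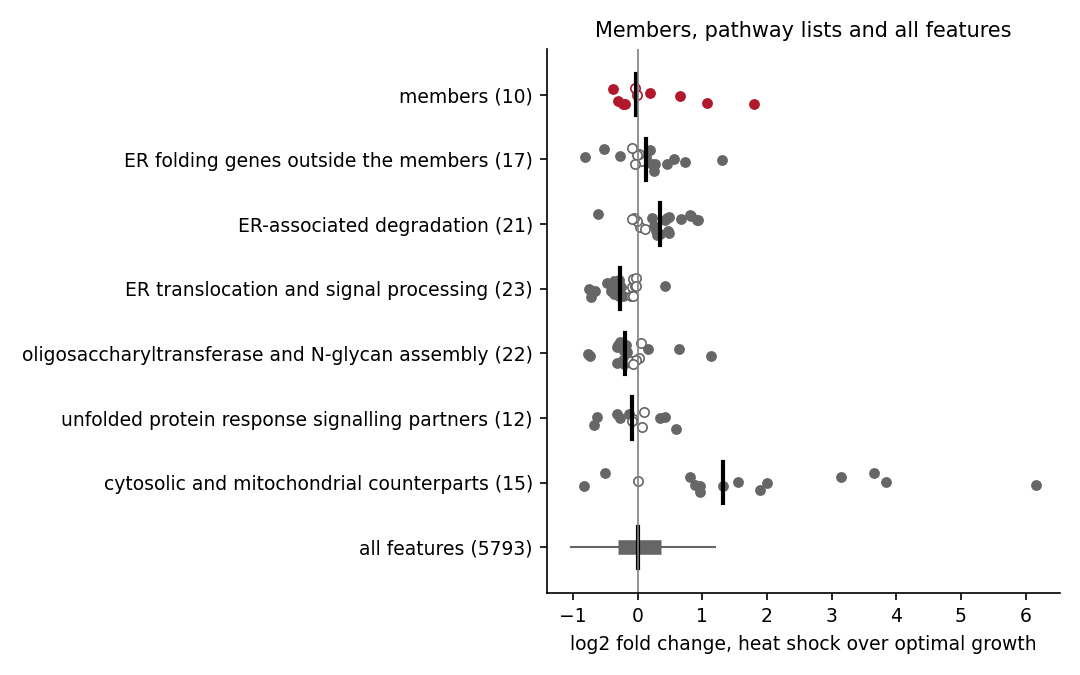
Log2 fold change (heat shock over optimal growth) for the members, 6 gene lists and all features; points are genes (filled, FDR under 0.05; open, not called), black bars are medians, and the bottom row shows the middle 50% (thick) and 90% (thin) of all features. Medians run from -0.27 for translocation to 1.32 for the counterparts, with the members at -0.02.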

How the data were processed

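Polyadenylated RNA was sequenced from 3 heat shock and 3 optimal growth aliquots with a stranded kit. The authors aligned reads with kalign to the repeat-masked R64 genome and compared treatments with the Trinity edgeR pipeline. The deposited table gives the log2 fold change, the log2 mean CPM, the p-value and the FDR of 5793 features. The read counter, its use of strand, the count filter, the edgeR test and the dispersion are not given in the sources used here, and these choices act most on low, copied or overlapping genes. No value per library was in the table, so depth per library is unknown and nothing was refitted. Because the table holds the authors' own comparison and nothing else, its values were used as deposited.

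Recomputing the Benjamini-Hochberg adjustment from the p-values gave the deposited FDR. The approximate SE is the fold change divided by the normal quantile of its two-sided p-value, and intervals are 95%. Sequences, symbols and coordinates (1-based) came from RefSeq R64. Motifs were searched in 250 bases before the start codon (500 as an alternative), which includes the untranslated leader. Shared sequence was counted as 50-base words on both strands. Genes named were the members, in each list the 3 called genes highest and the 3 called genes lowest in fold change, the Hsp70 and J-domain counterparts, and genes that overlap a member (none did). *TAD2*, *OPI10*, *SEC61*, *ALG14*, *ERV1*, *FES1*, *HLJ1* and *ERJ5* were added after their values were seen. The members and the lists were chosen with earlier results of these data known. The planned protein features were not analysed here. Alternatives were FDR 0.01 and 0.001, Bonferroni, Benjamini-Yekutieli, a minimum fold change, a minimum log2 mean CPM of 5, the mean in place of the median, and 2 centrings. Code was tested on simulated data. Calculations ran in Python 3.11.15 with pandas 2.3.3, numpy 2.4.6, matplotlib 3.10.9 and scipy 1.17.1.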

Additional observations from a re-analysis of the deposited data

How the results depend on the processing

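*KAR2*, *ERO1* and *PDI1* were called higher under FDR 0.01, FDR 0.001, Bonferroni and Benjamini-Yekutieli, and *SCJ1* under none of these. The 4 lower calls fell to 3 at FDR 0.001, which dropped *IRE1*, and to 0 under Bonferroni. When a log2 fold change of 1 or more in size was required, 2 members were higher and 0 lower. Among the lists, Bonferroni left 5 higher calls in ER folding outside the members and 6 lower calls in glycosylation. The minimum of 1 left 1 higher and 0 lower in ER folding, and the same in glycosylation. It left 0 and 0 in ER-associated degradation, in translocation and in the signalling partners. Among the counterparts it left 8 higher and 0 lower. A floor of this kind removes small changes by construction. The mean over members was 0.26, against a median of -0.02, as *KAR2*, *ERO1* and *PDI1* pull the mean up. Centring on the median of all features or on the abundance-weighted mean turned no called member. A minimum log2 mean CPM of 5 removed no member.

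No paired analysis was possible because values per library were not in the table. Leaving out each replicate, a fit with DESeq2 and other count filters, all planned, were not run for lack of such values, and whether 1 library decides any value is unknown.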
